A study of Homo sapiens with 14 samples.

Results

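The miR-15/16 family of microRNAs (miRNAs) was followed in A549 cells, a human lung adenocarcinoma cell line, through 2 assays that pull down small RNA carrying N7-methylguanosine (m7G), a guanine with an added methyl group. The family is represented here by 10 mature miRNAs of the 2588 in the count tables, chosen by name: the 5p arms hsa-miR-15a-5p, hsa-miR-15b-5p, hsa-miR-16-5p, hsa-miR-195-5p, hsa-miR-424-5p, hsa-miR-497-5p and hsa-miR-503-5p, and the 3p arms hsa-miR-15b-3p, hsa-miR-16-2-3p and hsa-miR-424-3p (the prefix hsa, for human, is left out from here on). In BoRed-seq, total RNA was reduced with NaBH4 in the presence of free m7GTP, the reduced m7G was hydrolysed at low pH, and the resulting abasic sites were tagged with a biotin probe for pulldown on streptavidin (Red, 2 libraries). Its control was RNA given acid-quenched NaBH4, which leaves m7G in place (Ctrl, 2 libraries). In the protocol this control also goes through the acid, probe and pulldown steps. In m7G-RIP-seq, heat-denatured RNA was immunoprecipitated with an anti-m7G antibody (IP, 5 libraries) and compared with the RNA before immunoprecipitation (Input, 5 libraries). All 14 libraries came from A549 cells grown in DMEM with serum, so they describe 1 cell line. The labels do not say whether replicates came from separate cultures, so p-values measure the spread between these libraries, which may be technical.

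A miRNA is cut from a hairpin with a 5p and a 3p arm. One arm, the guide, is usually kept in the Argonaute protein, and its seed, bases 2 to 8, pairs with target mRNAs. The arm kept less often is called the passenger. Below, guide names the 5p members, whichever arm was counted more. In Input the 3p arm was the more counted one for miR-424 and miR-195. The miR-15/16 guides are known as brakes on the cell cycle and on cell survival, with cyclin D1, cyclin E1 and BCL2 among their targets, and the miR-15a/16-1 locus is lost in many chronic lymphocytic leukaemias.

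The 5p arms are shown with their seeds in capitals, because the seed is what joins them into a family (RefSeq, GRCh38.p14).
miR-16-5p: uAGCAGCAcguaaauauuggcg
miR-15a-5p: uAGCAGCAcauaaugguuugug
miR-15b-5p: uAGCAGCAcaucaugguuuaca
miR-195-5p: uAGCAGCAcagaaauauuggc
miR-497-5p: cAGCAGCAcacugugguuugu
miR-424-5p: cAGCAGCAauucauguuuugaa
miR-503-5p: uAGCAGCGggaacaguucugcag

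The 3p arms are shown because they come from the same hairpins but carry other seeds, again in capitals.
miR-15b-3p: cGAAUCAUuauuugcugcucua
miR-16-2-3p: cCAAUAUUacugugcugcuuua
miR-424-3p: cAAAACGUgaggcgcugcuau

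Of the 7 guide-side sequences, 6 share the seed AGCAGCA, and miR-503-5p differs from them in the seed by A8G, counted from the 5′ end. Outside the seed the arms diverge. miR-16-5p and miR-195-5p differ at 2 of 21 aligned positions (G10A and U11G), miR-15a-5p and miR-15b-5p at 4 of 22, and miR-15b-5p and miR-16-5p at 8 of 22. The 3p arms do not have the family seed. All 3 hold the letters GCUGCU, which 24 of the 2370 human mature miRNAs in the reference table hold (1.01%). GCUGCU is the reverse complement of AGCAGC, which lies in the seed of every 5p member. The arms of a hairpin pair with each other, so these letters go with the family seed and are not a separate feature. miR-503-5p has the highest guanine content of the members, 34.8% of its bases, and is the only member with the letters GGG, which 787 of those 2370 miRNAs hold (33.2%). The lowest guanine content, 13.6%, belongs to miR-15b-3p and miR-16-2-3p. Motifs were read on the mature strand alone.

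The members lie in 4 clusters. MIR15A (chromosome 13, 50049119 to 50049201) and MIR16-1 (chromosome 13, 50048973 to 50049061) overlap an exon and an intron, respectively, of the long non-coding RNA gene DLEU2. MIR15B (chromosome 3, 160404588 to 160404685) and MIR16-2 (chromosome 3, 160404745 to 160404825) lie in an intron of SMC4, which codes for a condensin subunit. MIR195 (chromosome 17, 7017615 to 7017701) and MIR497 (chromosome 17, 7017911 to 7018022) overlap exons of MIR497HG. MIR424 (chromosome X, 134546614 to 134546711) and MIR503 (chromosome X, 134546328 to 134546398) overlap exons of MIR503HG. The mature miR-16-5p is made from 2 hairpins, MIR16-1 and MIR16-2, and its counts cannot be assigned to either locus.

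Red libraries were the shallowest, with totals of 242085 and 277498 counts, against 4678102 and 5874405 for Ctrl. IP totals lay between 2854811 and 6452759 counts, and Input totals between 7097379 and 14874685. In Input, all 5 epithelial marker miRNAs of the miR-200 family were detected, with a summed level of 342 to 1000 CPM (counts scaled to the same library total). The summed levels of the erythroid (2 of 3 detected, at most 0.768), white blood cell (4 of 4, at most 1.95) and muscle (2 of 3, at most 6.20) markers were low, and the liver marker miR-122-5p was at 0 in every library. In Red, the white blood cell sum was 20.7 and 72.1 CPM (lower in both Ctrl libraries), the muscle sum 41.3 and 43.2 CPM (0.340 to 3.42 in Ctrl) and the neuron marker miR-124-3p 12.4 and 46.8 CPM (0 in Ctrl). At the depth of Red replicate 1, 3 reads make 12.4 CPM, 5 make 20.7 CPM and 10 make 41.3 CPM, so the lower of these values rest on few reads. The part of these markers in the results was not tested. The endothelial marker miR-126-3p ran from 316 to 515 CPM in Input. The m7G-RIP-seq libraries parted along their second principal component (15.3% of the variance) into replicates 1 to 3 and replicates 4 and 5, in Input and IP alike. The labels name no batch for this, and values within each set are given beside the members they move.

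The family made up a small part of the miRNA counts. The 10 members together held 0.0721% and 0.103% of the counts in the Ctrl libraries and 0.0599% and 0.0778% in Red. In the smallest library, Red replicate 1, the 95% Wilson interval of this share was 0.0509% to 0.0705%, and the shares of the Red and Ctrl groups overlapped. In m7G-RIP-seq the share was 0.201% ± 0.0276 in Input and 0.307% ± 0.0336 in IP (SD, n = 5 each), and it was above every Input library (0.172% to 0.233%) in every IP library (0.259% to 0.341%). These shares are of library totals that a few miRNAs dominate, while the enrichments given next are relative to the typical miRNA of each assay.

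Values per library are given as normalised counts (counts divided by the size factor of the library). Enrichment is the log2 ratio of Red to Ctrl or of IP to Input with its standard error, and a miRNA was called at a Benjamini-Hochberg adjusted p under 0.05 of the DESeq2 Wald test over all miRNAs. A minimum of 10 counts, in at least 2 BoRed-seq or 5 m7G-RIP-seq libraries, was passed by 9 of the 10 members in each assay, all but miR-497-5p.

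In BoRed-seq, 2 members were depleted and none was enriched. DESeq2 gave an adjusted p to 8 members. The depleted members were miR-16-5p and miR-424-5p, both 5p arms. Among all 400 miRNAs tested, 27.2% were depleted, 32.2% enriched and 59.5% called in either direction, beside 2 of the 8 members. At an unadjusted p under 0.05, 0 members were enriched by DESeq2 and 0 by the quasi-likelihood test of edgeR. The median log2 over the 9 members past the filter was −0.75, beside −0.32 over all 453 miRNAs past it. The Red and Ctrl libraries did not overlap for 8 of the 9 members, beside 81.5% of all miRNAs past the filter.

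In m7G-RIP-seq, miR-503-5p was enriched, and both arms of miR-15b were depleted. The other 6 of the 9 tested members were not called. Among all 670 miRNAs, 27.3% were enriched, 29.9% depleted and 57.2% called in either direction, beside 3 of the 9 members. The median log2 of the members was 0.06, beside 0.02 over all miRNAs. The IP and Input libraries did not overlap for the 3 called members alone, beside 42.4% of all miRNAs.

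**Figure D1:**
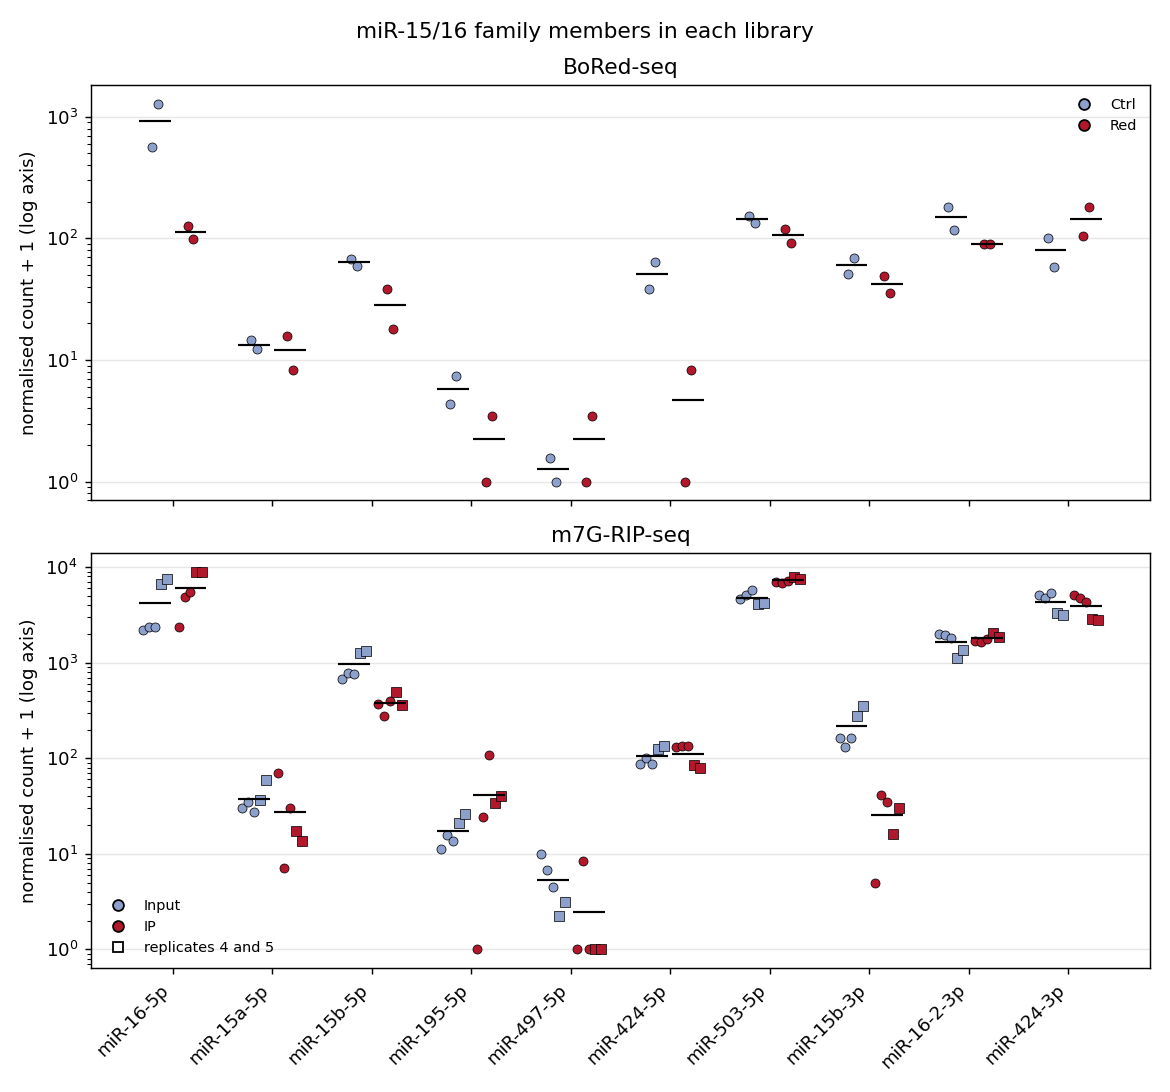
Normalised counts plus 1 (log axis) of the 10 members in each BoRed-seq (top) and m7G-RIP-seq (bottom) library. Points are libraries, bars are group means, and squares are m7G-RIP-seq replicates 4 and 5. Ctrl libraries of miR-16-5p stand at 568 and 1276 against 126 and 97.9 in Red, while its Input libraries fall into 2209 to 2371 (replicates 1 to 3) and 6627 to 7433 (replicates 4 and 5).

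miR-16-5p, the most counted guide of the family in Ctrl, had the clearest BoRed-seq change. Its normalised counts were 568 and 1276 in Ctrl and 126 and 97.9 in Red. Both Red libraries lay below both Ctrl libraries, and the Ctrl libraries differed from each other by more than the Red libraries did. The log2 enrichment was −3.05 ± 0.45 (SE, adjusted p 5.64e-11), an 8.29-fold lower level in Red. It was −4.30 without Ctrl replicate 1 and −1.92 with total-count size factors, and the call held in both.

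In m7G-RIP-seq the same guide was not called. The Input counts of miR-16-5p were 2209, 2363, 2371, 6627 and 7433 in replicates 1 to 5, and the IP counts were 2391, 4841, 5511, 8979 and 8883. The IP library was above the Input library of the same number in all 5 pairs, while the groups as a whole overlapped. The labels do not say that same-numbered libraries were prepared as pairs. The log2 was 0.54 ± 0.46 (SE, adjusted p 0.306). Input replicates 4 and 5 held 3.04 times the mean level of replicates 1 to 3. With the replicate number as a block, the log2 was 0.61 with an adjusted p of 0.0110, which makes miR-16-5p a second enriched member. Within replicates 1 to 3 alone it was 0.86 (adjusted p 9.15e-04), and within replicates 4 and 5 alone 0.26 (adjusted p 0.0536), all by DESeq2. A term for that split gave 0.66 (adjusted p 0.00448). With total-count factors, which shift all m7G-RIP-seq miRNAs upward by a median of 0.36, it was 0.83 (adjusted p 0.120).

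miR-15b-5p, the guide that is cut from the same SMC4 transcript as the second miR-16 hairpin, went down in the immunoprecipitates. Input libraries held 673, 777, 761, 1278 and 1325 normalised counts in replicates 1 to 5, and IP libraries 365, 273, 392, 489 and 364. All IP libraries were below all Input libraries. The log2 was −1.35 ± 0.27 (SE, adjusted p 1.81e-06), a 2.56-fold lower level. It was −1.13 within replicates 1 to 3 and −1.69 within replicates 4 and 5. In BoRed-seq, miR-15b-5p had 67.0 and 58.8 normalised counts in Ctrl and 37.0 and 17.1 in Red. The groups did not overlap, but the Red values stand for only 10 and 7 reads. Its log2 of −1.27 ± 0.65 (SE) was not called (adjusted p 0.0812). The edgeR quasi-likelihood test (log2 −1.46, adjusted p 0.0172) and TMM factors in DESeq2 (log2 −1.45, adjusted p 0.0443) called it depleted.

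miR-15a-5p, from the DLEU2 locus, was scarce. Its raw counts were 49 and 30 in Ctrl and 4 and 3 in Red. Input libraries held 26.6 to 58.6 normalised counts with a median of 33.7, and IP libraries 6.15 to 68.6 with a median of 16.2. The groups overlapped in both assays. BoRed-seq gave a log2 of −0.20 ± 1.06 (SE, adjusted p 0.880). The antibody gave −0.48 ± 0.60 (SE, adjusted p 0.509), with an approximate 95% interval of −1.65 to 0.70. IP replicate 1, the highest of its group, decided this value: without it the log2 was −1.26 (adjusted p 0.0227). Within replicates 1 to 3 it was 0.19 (adjusted p 0.872), and within replicates 4 and 5 −1.78 (adjusted p 0.0303).

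miR-195-5p and miR-497-5p, clustered 5p arms known for repressing cell-cycle genes, were close to the detection limit. miR-195-5p had 12 and 17 reads in Ctrl and 0 and 1 in Red, a ratio of Red to Ctrl of 0.320 with a 95% counting interval of 0.00784 to 1.93. DESeq2 gave it no adjusted p in BoRed-seq. Its Input libraries held 10.2 to 25.1 normalised counts with a median of 14.6, and its IP libraries held 0, 23.4, 107, 33.4 and 39.3 in replicates 1 to 5. In 3 IP libraries the level was above every Input library, and in IP replicate 1 no read was found. The log2 was 1.29 ± 0.80 (SE, adjusted p 0.157), 1.58 without IP replicate 1 (adjusted p 0.00690) and 0.51 without IP replicate 3 (adjusted p 0.588). With the replicate block it was 0.58 (adjusted p 0.520). miR-497-5p had 2 reads over both Ctrl libraries and 1 over both Red libraries. Input libraries had 2 to 9 reads of it, IP replicate 2 had 6, and the other 4 IP libraries had 0. No enrichment was fitted for it.

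miR-424-5p, a 5p arm known from hypoxia and monocyte differentiation, was depleted in BoRed-seq. Ctrl libraries held 136 and 170 reads and Red libraries 0 and 3. The log2 was −3.57 ± 1.11 (SE, adjusted p 0.00277). The ratio of Red to Ctrl from the summed reads was 0.0911 with a 95% counting interval of 0.0187 to 0.269. The call was lost without Red replicate 1 (log2 −2.40, adjusted p 0.0764) and with total-count size factors (log2 −2.39, adjusted p 0.0789). With either Ctrl library left out the miRNA no longer passed the count filter. In m7G-RIP-seq, Input libraries held 85.4 to 135 normalised counts with a median of 99.1, and IP libraries 78.7 to 133 with a median of 129. The ranges coincided almost fully. The log2 was 0.06 ± 0.27 (SE, adjusted p 0.876), with an approximate 95% interval of −0.47 to 0.59, and its sign depended on the replicates: it was 0.52 within replicates 1 to 3 and −0.77 within replicates 4 and 5, neither of them called.

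miR-503-5p, which is cut from the same transcript as miR-424 and differs from the other guides in its seed, rose in the immunoprecipitates. Input libraries held 4590, 5152, 5788, 4132 and 4223 normalised counts in replicates 1 to 5, and IP libraries 6948, 6802, 7246, 7796 and 7586. All IP libraries were above all Input libraries, with a narrow spread in IP. The log2 was 0.61 ± 0.14 (SE, adjusted p 6.96e-05), a 1.52-fold higher level. The rise was 0.41 within replicates 1 to 3 and 0.80 within replicates 4 and 5, called in both. In BoRed-seq, miR-503-5p had 152 and 132 normalised counts in Ctrl and 119 and 90.6 in Red. The log2 of −0.45 ± 0.42 (SE) was not called (adjusted p 0.362), and with total-count factors, which shift all BoRed-seq miRNAs upward by a median of 1.09, it was 0.65 (adjusted p 0.234).

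The 3p arms behaved differently from each other. miR-15b-3p fell most in the immunoprecipitates. Its Input libraries held 161, 129, 162, 279 and 354 normalised counts in replicates 1 to 5, and its IP libraries 3.96, 40.6, 33.7, 15.2 and 29.2. The highest IP library was below the lowest Input library. The log2 was −3.16 ± 0.50 (SE, adjusted p 1.77e-09), an 8.92-fold lower level, and it was −2.89 without IP replicate 1, the library with only 3 reads. Within replicates 1 to 3 the log2 was −2.55, and within replicates 4 and 5 it was −3.95, called in both. In BoRed-seq it had 50.4 and 67.7 normalised counts in Ctrl and 48.1 and 34.3 in Red. The log2 of −0.54 ± 0.58 (SE) was not called (adjusted p 0.441), and it turned to 0.58 with total-count factors (adjusted p 0.455).

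miR-16-2-3p was not called in either assay. In m7G-RIP-seq, Input libraries held 1112 to 1995 normalised counts with a median of 1828, and IP libraries 1638 to 2041 with a median of 1785. The log2 was 0.13 ± 0.20 (SE, adjusted p 0.600), −0.20 within replicates 1 to 3 (adjusted p 0.213) and 0.58 within replicates 4 and 5 (adjusted p 7.31e-04). In BoRed-seq it went from 181 and 116 to 88.9 and 88.1 normalised counts, a log2 of −0.75 ± 0.45 (SE, adjusted p 0.143). The edgeR quasi-likelihood test called it depleted (log2 −0.92, adjusted p 0.0392), while total-count factors turned the value to 0.37 (adjusted p 0.558).

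miR-424-3p was the only member with a BoRed-seq log2 above 0. It had 99.6 and 57.6 normalised counts in Ctrl and 104 and 181 in Red. Both Red libraries were above both Ctrl libraries, the lower of them by a small margin. The log2 of 0.87 ± 0.49 (SE) was not called (adjusted p 0.115). With total-count factors it was 2.02 and was called enriched (adjusted p 4.27e-04), without Red replicate 1 it was 1.57 and was called too (adjusted p 0.0251), and without Ctrl replicate 2 it was −0.07. In m7G-RIP-seq the Input libraries held 3191 to 5301 normalised counts with a median of 4707, and the IP libraries 2824 to 5054 with a median of 4320. The log2 was −0.13 ± 0.25 (SE, adjusted p 0.692), −0.12 within replicates 1 to 3 (adjusted p 0.425) and −0.29 within replicates 4 and 5 (adjusted p 0.0416).

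**Figure D2:**
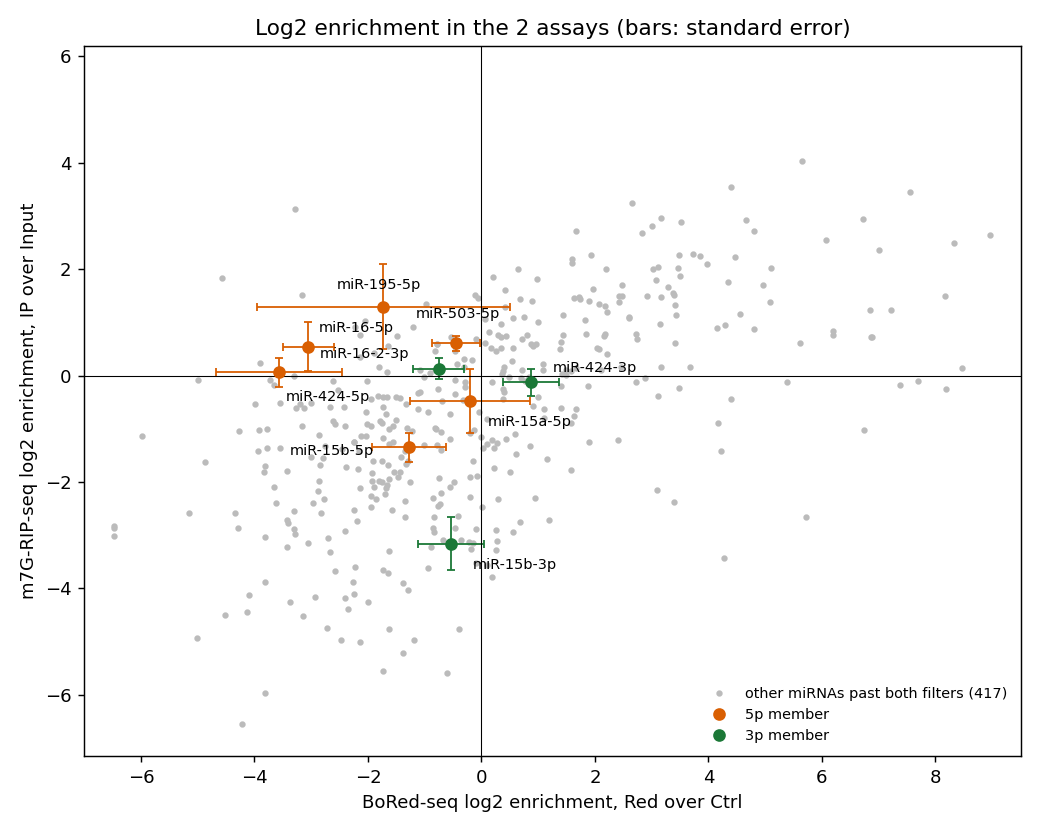
Log2 enrichment in BoRed-seq (Red over Ctrl, horizontal) against m7G-RIP-seq (IP over Input, vertical) for 9 members and the other 417 miRNAs past both count filters (grey). Bars are standard errors. miR-16-5p (−3.05 and 0.54) and miR-424-5p (−3.57 and 0.06) lie far to the left near the horizontal line, and miR-15b-3p (−0.54 and −3.16) lies low near the vertical line.

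The assays were then compared member by member, since both address the same modification. With DESeq2 as described above, no member was called in both. Other fits did call members in both: miR-15b-5p was depleted in both by the edgeR quasi-likelihood test and with TMM factors, and with the replicate block miR-16-5p was depleted in BoRed-seq and enriched in m7G-RIP-seq. Of the 8 members with an adjusted p in both assays, 4 had log2 enrichments that differed by more than their standard errors allow (z test, adjusted over the 384 miRNAs tested in both, of which 38.0% differed). miR-16-5p was lower in BoRed-seq by a log2 of −3.59 ± 0.64 (SE, z test adjusted p 2.29e-07). The difference of miR-424-5p was −3.63 ± 1.14 (SE, z test adjusted p 0.00596). miR-15b-3p went the other way, with 2.62 ± 0.77 (SE, z test adjusted p 0.00301). miR-503-5p had −1.06 ± 0.44 (SE, z test adjusted p 0.0470).

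These differences were not equally firm. That of miR-16-5p passed the threshold in 25 of 25 alternatives, among them total-count factors (−2.75, adjusted p 1.54e-04) and each m7G-RIP-seq replicate set (−3.91 and −3.31). That of miR-15b-3p was lost without Ctrl replicate 1 (1.65, adjusted p 0.232) or Ctrl replicate 2 (2.27, adjusted p 0.0999), and after Ctrl counts were thinned to Red totals (2.75, adjusted p 0.0643). That of miR-424-5p was lost without Red replicate 1 (−2.45, adjusted p 0.101) and with total-count factors (−2.78, adjusted p 0.0531). That of miR-503-5p was lost in 14 of 25 alternatives, among them total-count factors (−0.30, adjusted p 0.658), the replicate block (−1.07, adjusted p 0.0861) and the absence of Red replicate 1 (−0.88, adjusted p 0.271) or Red replicate 2 (−0.72, adjusted p 0.400). miR-15b-5p had nearly equal log2 values in the assays, −1.27 and −1.35, with an approximate 95% interval of −1.28 to 1.46 for their difference.

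Ratios between members within a library do not depend on size factors, so they were used to compare arms and cluster mates. In Input, miR-15b-5p exceeded miR-15b-3p in all libraries, by 3.74 to 6.01 times. In IP the excess was 79.3, 6.64, 11.3, 31.2 and 12.2 times in replicates 1 to 5. The mean log2 ratio went from 2.20 ± 0.25 to 4.22 ± 1.42 (SD, n = 5 each), a difference of 2.03 with no overlap (two-sided exact permutation p 0.00794, adjusted over 7 ratios 0.0278). This p is the smallest that 5 libraries against 5 can give. Thus both arms of miR-15b fell, and the 3p arm fell further. In BoRed-seq the log2 ratio was 0.41 and −0.20 in Ctrl and −0.36 and −0.95 in Red, where 2 libraries against 2 cannot give a two-sided p below 0.333.

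The ratio of miR-15b-5p to miR-16-5p also shifted under the antibody. miR-16-5p held 3.04 to 5.61 times the counts of miR-15b-5p in Input and 6.54 to 24.3 times in IP. The mean log2 ratio went from −1.96 ± 0.43 to −3.89 ± 0.72 (SD, n = 5 each), a difference of −1.93 with no overlap (two-sided exact permutation p 0.00794, adjusted 0.0278). It was −1.90 within replicates 1 to 3 and −1.97 within replicates 4 and 5. In BoRed-seq the ratio went the other way, from a mean log2 of −3.76 in Ctrl to −2.07 in Red, with no overlap between the 2 libraries of each group. Both ratios that separated IP from Input include miR-15b-5p, which was itself called depleted without overlap, so they are not separate from that call. The share of other miRNA pairs whose ratios separate was not computed.

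The other ratios did not separate IP from Input. miR-16-5p exceeded miR-16-2-3p by 1.11 to 1.30 times in Input replicates 1 to 3 and by 5.96 and 5.46 times in Input replicates 4 and 5. The IP libraries spanned 1.41 to 4.73 times (difference of log2 means 0.45, exact permutation p 0.476, adjusted 0.516). In BoRed-seq this ratio was 3.14 and 10.9 in Ctrl and 1.41 and 1.11 in Red. Since miR-16-5p is also made from MIR16-1, this ratio is not the arm balance of MIR16-2 alone. miR-424-3p exceeded miR-424-5p by 23.5 to 61.8 times in Input and by 32.3 to 38.9 times in IP (difference of log2 means for 5p over 3p 0.20, exact permutation p 0.516). In Ctrl the log2 ratios of 5p over 3p were −1.40 and 0.13, a 2.64-fold excess of the 3p arm in replicate 1 and near balance in replicate 2. In Red they were −5.83 and −4.41, resting on 0 and 3 reads of miR-424-5p. The ratios of miR-15a-5p to miR-16-5p (difference −1.45, exact permutation p 0.135), miR-424-5p to miR-503-5p (−0.56, exact permutation p 0.111) and miR-195-5p to miR-497-5p (2.00, exact permutation p 0.214) did not pass the test either.

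**Figure D3:**
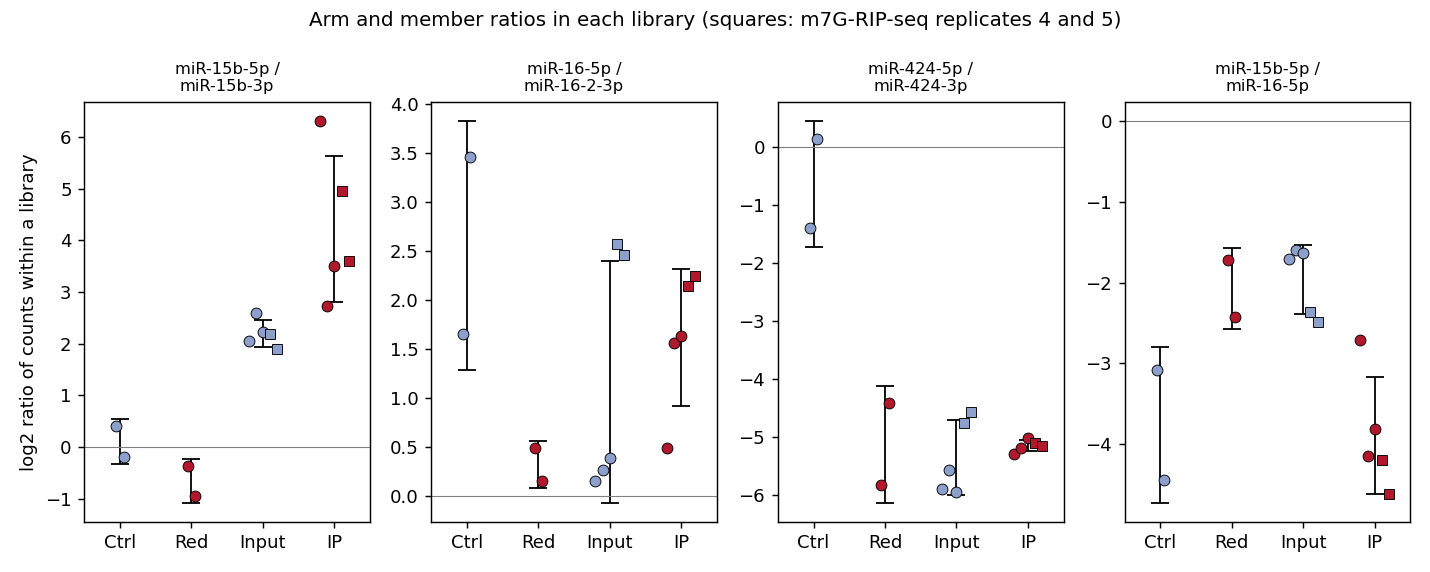
Log2 ratios of 2 members counted in the same library, with 0.5 added to each count, for Ctrl, Red, Input and IP. Points are libraries (squares are m7G-RIP-seq replicates 4 and 5) and bars span the mean ± SD. IP lies above Input for miR-15b-5p over miR-15b-3p and below it for miR-15b-5p over miR-16-5p, and Ctrl stands apart for miR-424-5p over miR-424-3p.

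The make-up of the family also differed between libraries. miR-16-5p and miR-503-5p together took most of the counts of the 7 guide-side arms in every library. miR-16-5p held 67.5% and 82.5% of them in Ctrl and 42.5% and 43.5% in Red, while miR-503-5p held 18.0% and 8.51% in Ctrl and 40.0% and 40.2% in Red. In Input, miR-16-5p held 26.2% to 56.3% with a median of 29.0%, and miR-503-5p 32.0% to 64.0% with a median of 60.4%. In IP, miR-16-5p held 24.1% to 52.4% and miR-503-5p 44.7% to 70.2%, ranges that overlap those of Input. miR-15b-5p held 9.39% ± 0.852 in Input and 2.77% ± 0.615 in IP (SD, n = 5 each). The other 4 arms together were minor, each at most 5.00% of these counts in every library. These shares are given as a description, without a test.

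**Figure D4:**
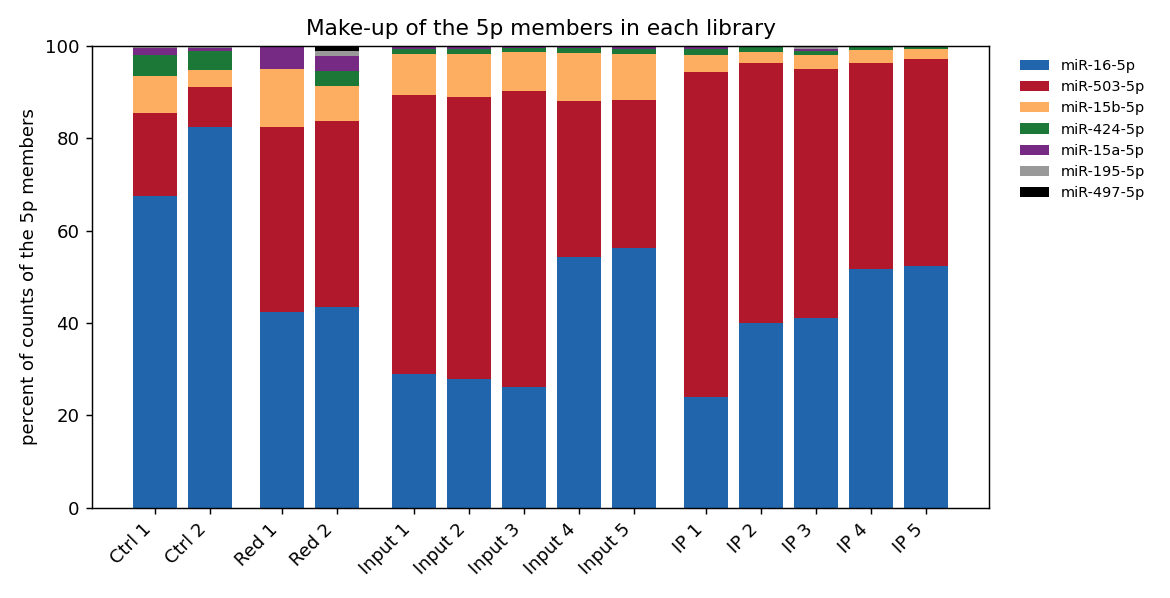
Percent of the counts of the 7 5p members that each took, for each of the 14 libraries. miR-16-5p falls from 67.5% and 82.5% in Ctrl to 42.5% and 43.5% in Red, and in Input it stands at 26.2% to 29.0% in replicates 1 to 3 against 54.2% and 56.3% in replicates 4 and 5.

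The control libraries of the assays also differed in the family, and they are unlike fractions of A549 RNA. Ctrl RNA went through mock reduction and the pulldown steps, while Input is RNA before immunoprecipitation. Their levels are therefore set side by side as a description only. miR-424-3p had 61.3 and 33.1 CPM in Ctrl and 402 to 639 in Input. miR-503-5p had 93.3 and 75.7 CPM in Ctrl and 533 to 661 in Input. miR-424-5p had 23.2 and 36.3 in Ctrl and 9.75 to 17.1 in Input, so its level was higher in Ctrl while those of its 3p arm and of miR-503-5p were lower. In Ctrl the order of the guides by CPM was miR-16-5p, miR-503-5p, miR-15b-5p, miR-424-5p, miR-15a-5p, miR-195-5p and miR-497-5p. The miR-15b-5p (41.2 and 33.8) and miR-424-5p (23.2 and 36.3) levels overlapped there. In Input, miR-503-5p and miR-16-5p overlapped at the top, followed by miR-15b-5p (83.8 to 176), miR-424-5p (9.75 to 17.1), miR-15a-5p (3.04 to 7.40), miR-195-5p (1.27 to 3.16) and miR-497-5p (0.171 to 1.13). miR-15a-5p and miR-195-5p overlapped slightly between libraries. Mature miRNAs are read whole and differ by at most 2 bases in length here, but their ligation into libraries was not measured, so this order is one of counts.

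Relatives outside the list were read next: the remaining arms of the same hairpins and the miR-542 and miR-450 arms, which lie close to miR-424 and miR-503 on chromosome X, 12 miRNAs in all. In BoRed-seq, 5 of the 12 passed the filter, and of the 4 with an adjusted p, 3 were depleted and 0 enriched, beside 27.2% of all miRNAs depleted. In m7G-RIP-seq, 6 passed, 4 were depleted and 0 enriched, beside 29.9% of all miRNAs depleted. miR-450a-5p was lower in both assays, with a BoRed-seq log2 of −1.39 ± 0.45 (SE, adjusted p 0.00396) and an m7G-RIP-seq log2 of −3.90 ± 0.48 (SE, adjusted p 6.80e-15). miR-542-3p had −2.19 ± 0.62 (SE, adjusted p 0.00104) and −2.74 ± 0.33 (SE, adjusted p 8.82e-16). miR-450b-5p had −2.58 ± 0.65 (SE, adjusted p 1.77e-04) and −0.92 ± 0.42 (SE, adjusted p 0.0467). miR-450a-2-3p, tested in m7G-RIP-seq alone, had −1.68 ± 0.35 (SE, adjusted p 8.04e-06). In the same libraries miR-503-5p was enriched and neither arm of miR-424 was called. miR-195-3p (0.77 ± 0.36, SE, adjusted p 0.0567) and miR-503-3p (0.93 ± 0.45, SE, adjusted p 0.0653) were not called in m7G-RIP-seq.

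Outside the list, 1 further miRNA in the reference table carries the family seed, miR-6838-5p, and it had 0 reads over the BoRed-seq libraries and 12 over the m7G-RIP-seq libraries. The miRNAs whose profile over the 14 libraries lay closest to that of miR-16-5p, by the root mean square difference of centred log2 values among 144 well-covered miRNAs, were miR-126-3p (0.61), miR-152-3p (0.67) and miR-100-5p (0.68). Their BoRed-seq log2 enrichments were −2.14 ± 0.39 (SE) for miR-126-3p, −1.67 ± 0.44 for miR-152-3p and −1.49 ± 0.29 for miR-100-5p. In m7G-RIP-seq they were 0.34 ± 0.42, 0.06 ± 0.23 and 0.74 ± 0.26 in that order. These miRNAs were picked for likeness over the same libraries, so signs like those of miR-16-5p are built into the choice.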

How the data were processed

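Small RNA libraries were prepared with a NEBNext kit and sequenced as single reads. The authors trimmed adaptors with Trimmomatic, aligned reads to hg38 (STAR in the methods, Bowtie2 in the submitters' processing notes) and counted them over mature miRBase miRNAs with featureCounts. The deposited values are raw counts, neither normalised nor pooled, in 1 table per assay, with 0 columns that matched no sample. How reads from several hairpins were counted is not given in the sources used here, and 5 of the 10 m7G-RIP-seq counts of miR-16-5p were odd, so they are not plain multiples of its 2 hairpins, while 0 of the 4 BoRed-seq counts were odd.

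Groups and replicates were taken from the sample titles. Red was compared with Ctrl and IP with Input in separate fits, by DESeq2 (version 1.42.0, R 4.3.3) and its Wald test, which the study also used, with median-of-ratios size factors and a minimum of 10 counts in at least 2 (BoRed-seq) or 5 (m7G-RIP-seq) libraries. p-values were adjusted over all miRNAs tested, and 53 of the 453 BoRed-seq miRNAs received no adjusted p from DESeq2. Approximate 95% intervals of a log2 value are normal intervals from its SE. Assay differences were tested with a two-sided z test, and ratios within libraries with a two-sided exact permutation test (0.5 added to each count). Intervals of shares and of ratios of reads cover counting error alone, and a count of 0 in the smallest library allows a share of up to 0.00124% (3 counts). Same-numbered Input and IP libraries deviated together (correlations 0.146 to 0.387), so the replicate number was also fitted as a block, and that fit is printed where it changes a call. For replicates 2 and 4 an IP library of another number was the closer partner, and the labels name no pairing. Every pair of replicates differed beyond sampling noise, with a chi-square of at least 10.4 for each degree of freedom.

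A check on simulated counts (dispersion 0.1, a log2 change of 2 in 200 miRNAs) had DESeq2 recover 60% of them among 453 BoRed-seq miRNAs and 95% among 670 m7G-RIP-seq miRNAs. It called 4 and 17 unchanged miRNAs, respectively. The same dispersion was used for every miRNA, without the split between replicates, so the check does not cover members that vary more. edgeR 4.0.16 gave the TMM factors and the quasi-likelihood test. Sequences and positions came from RefSeq (GRCh38.p14), in which 2281 of the 2588 miRNA names were matched, and gene overlaps from GENCODE on hg38. Named miRNAs are the members, their other arms and cluster mates, miRNAs of the same seed, and the 3 closest profiles to miR-16-5p among miRNAs with a mean normalised count of at least 100 in both assays. The members and lists were chosen with earlier results of these data known.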

Additional observations from a re-analysis of the deposited data

Results flagged for a closer look

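Of the 8 members tested in both assays, 4 had log2 enrichments that differed between them in a z test of the difference. Among all 384 miRNAs tested in both, 38.0% differed. BoRed-seq minus m7G-RIP-seq was −3.59 for miR-16-5p, −3.63 for miR-424-5p, −1.06 for miR-503-5p and 2.62 for miR-15b-3p. The interaction term of a single DESeq2 fit over the 14 libraries also gave these 4 (−3.97, −3.97, −1.41 and 2.24), and it added miR-16-2-3p (−1.22, adjusted p 0.0241). The share of all miRNAs called by this term is not given here.

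Among the 18 groups of 5 m7G-RIP-seq libraries examined, 1 held a library far from the others: miR-15a-5p had 58.6 normalised counts in Input replicate 5, and its gap to the next library was 0.725 of the range of the group. Chance marks about 5% of such groups.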

How the results depend on the processing

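The BoRed-seq depletion of miR-16-5p, the m7G-RIP-seq rise of miR-503-5p and the m7G-RIP-seq fall of miR-15b-5p kept their direction and their call under every alternative run for them. That of miR-15b-3p did so wherever it was tested, since it failed a minimum of 10 counts in every library. BoRed-seq enriched 0 members, and 1 with total-count factors. It depleted 2, but 1 with total-count factors or with Ctrl thinned to the Red depth. TMM factors gave 3 depleted members, and the edgeR quasi-likelihood test or no count filter gave 4. Leaving out 1 library gave 0 to 1 enriched members and 1 to 2 depleted. The calls over all miRNAs moved too. They were 129 enriched and 109 depleted of 400 as described above, and 175 and 46 of 391 with total-count factors. Depleted were 64 of 259 with Ctrl thinned, 123 of 453 with TMM factors, 167 of 453 by edgeR and 125 of 678 without a count filter. m7G-RIP-seq enriched 1 member, and 2 with total-count factors, with the replicate block, with replicates 1 to 3 alone, with replicates 4 and 5 alone, and with a term for that split. The added member was not the same throughout. It was miR-16-5p with the block, with replicates 1 to 3 and with the split term, and miR-16-2-3p with replicates 4 and 5. With total-count factors miR-16-5p was not called. m7G-RIP-seq depleted 2, but 1 with 10 counts in every library and 4 with replicates 4 and 5 alone, which added miR-15a-5p and miR-424-3p. Leaving out 1 library gave 1 to 2 enriched members and 2 to 3 depleted. Over all miRNAs, m7G-RIP-seq enriched 183 and depleted 200 of 670 as described above. Enriched were 232 of 670 with total-count factors, 192 of 670 with the block and 204 of 669 with the split term. Replicates 1 to 3 alone enriched 159 of 645. Replicates 4 and 5 alone enriched 186 and depleted 243 of 772. With 10 counts in every library, 116 of 362 were depleted. The replicate block changed no other enrichment call of a member, in either assay. In BoRed-seq, with 2 libraries a group, the numbers are only labels. Leaving out 1 library gave 2 to 4 members that differed between the assays.

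The log2 ratio of miR-15b-5p to miR-15b-3p differed by 2.03 (adjusted p 0.219 by the paired sign-flip test with the replicate block), by 1.89 within replicates 1 to 3, 2.24 within replicates 4 and 5, and 1.51 to 2.40 with 1 library left out. That of miR-15b-5p to miR-16-5p differed by −1.93 (adjusted p 0.219 with the replicate block), −1.90, −1.97, and −2.23 to −1.75. These smaller designs cannot pass the threshold over 7 ratios (the smallest paired p is 0.0625), so they bear on the values alone. Within replicates 4 and 5, the ratios of miR-424-5p to miR-424-3p (−0.47) and of miR-16-5p to miR-16-2-3p (−0.32) turned. Within replicates 1 to 3, that of miR-424-5p to miR-503-5p (0.11) turned.

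Values that were not called and changed sign were as follows. In BoRed-seq with total-count factors, miR-15a-5p had 0.88, miR-15b-3p 0.58, miR-16-2-3p 0.37 and miR-503-5p 0.65. With 1 library left out, miR-15a-5p ran from −0.38 to 0.41 and miR-424-3p from −0.07 to 1.57. In m7G-RIP-seq, miR-424-3p had 0.23 with total-count factors, miR-15a-5p 0.19 and miR-16-2-3p −0.20 within replicates 1 to 3, and miR-424-5p −0.77 within replicates 4 and 5 and −0.08 to 0.16 with 1 library left out. TMM factors shifted the BoRed-seq median by −0.19. Causes of these changes were not tested beyond the alternatives themselves. Depth limits BoRed-seq, where 5 members had 10 or fewer reads in a Red library.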
